A study of Mus musculus with 10 samples.

Results

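Distal convoluted tubule cells were taken here as the mouse kidney barcodes with at least 2 UMIs of Slc12a3, the thiazide-sensitive sodium-chloride cotransporter that marks this segment, and fewer than 3 UMIs of Aqp2, the water channel of principal cells. A UMI is a molecular identifier that counts 1 captured RNA molecule. The rule chose 50 of 4376 barcodes, 32 of 3063 in the injured library and 18 of 1313 in the uninjured one. The injured library came from a kidney of the C57/BL6 strain whose renal artery was tied for 15 min on 1 side, with the kidney taken 2 weeks later. The uninjured library came from a kidney of the same strain, and both were labelled with an age of 8 week. Each group is 1 library of live cells gated with DAPI after digestion on ice, the number of animals behind each is not given in the labels, and no test between the libraries is possible. Every difference below is therefore a difference between 2 libraries without a replicate check, and the intervals are 95% exact intervals that cover counting error only. The 8 bulk samples of the series, which include mice with the Pax8creERT2;Ihhfl/fl strain label, were not used here.

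The distal convoluted tubule lies between the thick ascending limb and the connecting tubule. It takes up sodium chloride through the Slc12a3 cotransporter under the control of WNK kinases, and it sets the final magnesium and much of the regulated calcium content of the urine. Its early portion is known for parvalbumin (Pvalb) and magnesium handling, and its late portion shares calbindin (Calb1, S100g), epithelial sodium channel subunits and kallikrein (Klk1) with the connecting tubule.

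The markers went with the label in part, with Slc12a1 absent but Tmem52b, Calb1 and Umod uneven among members. Slc12a3 chose the barcodes and is given only as a description: it had 2 to 28 UMIs per barcode in the injured library, with a median of 7.5, and 2 to 27 in the uninjured library, with a median of 8. No member had an Aqp2 UMI, and the members held 93.7% of all Slc12a3 UMIs of the injured library and 94.6% of those of the uninjured library. Tmem52b, a membrane protein used as a marker of this segment, was detected in 30 of 32 injured members and 10 of 18 uninjured members. Calb1, a calcium buffer of the late distal tubule, was detected in 12 of 32 injured members and 9 of 18 uninjured members. Slc12a1, the cotransporter that defines the thick ascending limb, had 0 UMIs in the members of either library, against 5532 CPM (counts per 1000000 UMIs of the summed barcodes) in the injured barcodes and 5767 CPM in the uninjured barcodes chosen as thick ascending limb by Slc12a1 or Umod UMIs. Umod, which at 5 UMIs or more also chose thick ascending limb barcodes, was detected in 21 of 32 injured members and 15 of 18 uninjured members. Its upper quartile was 3.25 UMIs in injured and 8.5 in uninjured members, with maxima of 21 and 24. Members that met this Umod minimum stayed members because the member rule came first. Just outside the rule, 20 injured and 9 uninjured barcodes had exactly 1 Slc12a3 UMI. Of those, 9 of 20 injured and 2 of 9 uninjured barcodes had Tmem52b, and 0 of 20 injured and 1 of 9 uninjured barcodes had Calb1. Just inside it, the 4 injured members with exactly 2 Slc12a3 UMIs all had Tmem52b and none had Calb1, and the single such uninjured member had Calb1 and no Tmem52b.

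The intervals of the member share overlapped between the libraries, and its order depended on the denominator. They made up 1.04% of injured barcodes (0.716% to 1.47%) and 1.37% of uninjured barcodes (0.814% to 2.16%). Injured kidney held far more leukocyte barcodes, 28.5% against 2.51%, and fewer proximal tubule barcodes, 29.3% against 75.9%, so the denominators differ. Among the distal barcodes alone (members, thick ascending limb, principal and intercalated), members were 32 of 343 injured barcodes, or 9.33% (6.47% to 12.9%), and 18 of 141 uninjured barcodes, or 12.8% (7.74% to 19.4%). Among all tubule barcodes (those and the proximal tubule), the order was the other way, with 2.58% of 1239 injured barcodes (1.77% to 3.63%) and 1.58% of 1138 uninjured barcodes (0.940% to 2.49%).

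Depth was close and the mitochondrial share was not. Injured members had a median of 2424 UMIs and uninjured members 2167. The median share of mitochondrially encoded UMIs was 27.3% in injured members (3.94% to 49.5%) and 41.4% in uninjured members (16.8% to 49.1%). The thick ascending limb barcodes showed the same order, 12.3% in injured and 32.9% in uninjured kidney, at lower levels. No deposited barcode exceeded 50% mitochondrial UMIs, and 8 of 32 injured and 10 of 18 uninjured members lay above 40%, against 17 of 159 injured and 18 of 64 uninjured thick ascending limb barcodes. How many cells of this segment lay beyond that limit was not tested. In 4 injured members and 1 uninjured member, UMIs of other cell types were present: 3 of the 4 injured ones carried the leukocyte gene Ptprc, and the injured and uninjured ones with proximal genes held 121 of 128 and 157 of 167 Kap UMIs. These 5 mixed barcodes stay in the values below, and values without them are given where they matter. The libraries shared 8 barcode sequences, none of them in a member.

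Beside the genes of the rule, a compact set of transcripts set the members apart from other barcodes in both libraries. Of the 315 genes with at least 30 UMIs summed over the members of at least 1 library, 38 (12.1%) were at least 2-fold higher in members than in all other barcodes in both libraries, and 20 (6.35%) at least 2-fold lower. The barcodes were chosen on 1 of these genes, so the contrast is descriptive. The count minimum was set on UMIs of the members, so genes with few UMIs in members could not enter. It therefore favours genes that are high in members, and the counts of higher and lower genes are not a like comparison. The 15 largest, by the smaller of the log2 ratios of the 2 libraries, were Slc12a3 (10.35), Pvalb (9.43), Pgam2 (4.51), Hoxb5os (4.25), Sfrp1 (4.07), Slc16a7 (4.01), Ppp1r1a (3.84), Calb1 (3.78), Kng2 (3.77), Wnk1 (3.76), Tmem52b (3.54), Defb1 (3.39), Kcnj1 (3.14), Mt2 (3.12) and Tmem213 (2.81). Pvalb, a calcium-binding protein of the early segment, had 0 UMIs in the principal, intercalated, proximal and leukocyte barcodes of either library. Trpm6, the magnesium channel of this segment, did not reach the count minimum, with 13 UMIs in injured and 2 in uninjured members, and was at 0 CPM in principal, intercalated and proximal barcodes of either library. Pgam2, the muscle form of phosphoglycerate mutase, was at 574 CPM in injured and 622 CPM in uninjured members and at 315 CPM in injured and 768 CPM in uninjured principal barcodes. Ppp1r1a, an inhibitor of protein phosphatase 1, and Sfrp1, a secreted antagonist of Wnt ligands, were shared with the thick ascending limb instead, at 1195 CPM for Ppp1r1a in injured members and 1272 CPM in injured thick ascending limb barcodes. Tmem52b was shared with principal barcodes, at 999 CPM in the injured and 1134 CPM in the uninjured library.

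**Figure D1:**
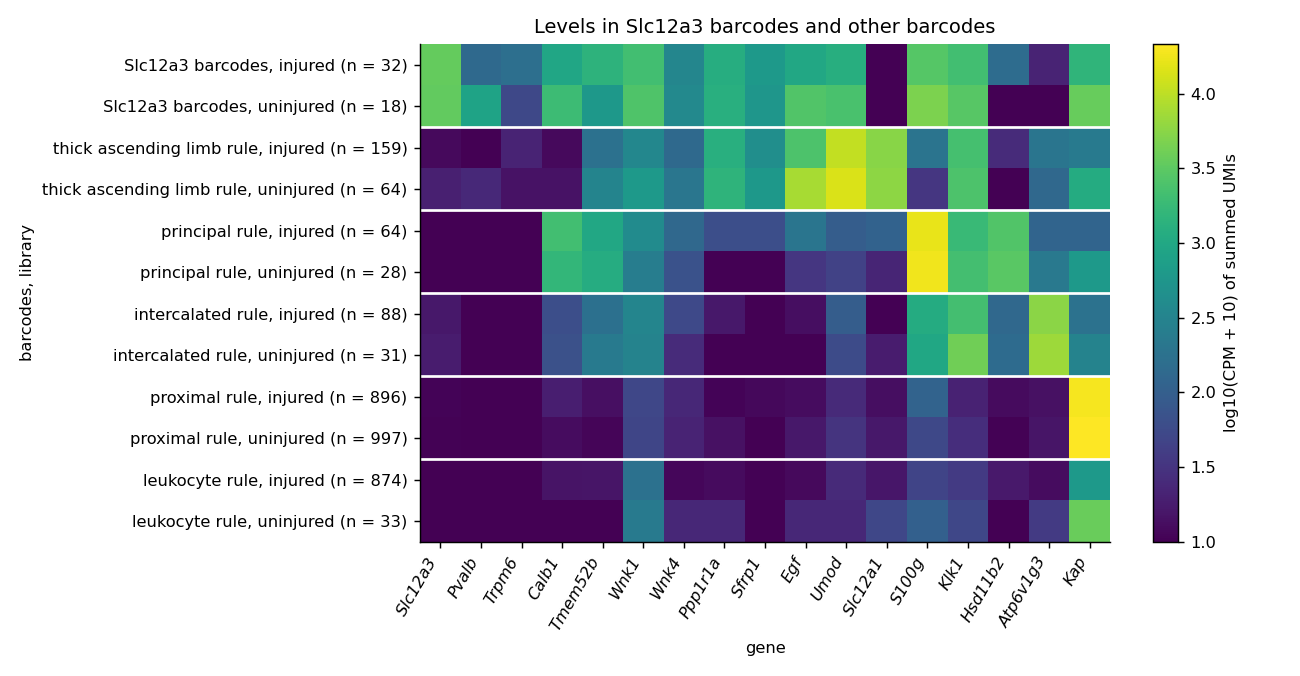
Summed levels of 17 genes (columns; colour is log10 of CPM plus 10) in the Slc12a3 barcodes and in 5 groups of other barcodes chosen by marker UMIs, with the injured library above the uninjured one in each pair. Slc12a3, Pvalb and Trpm6 are near the floor outside the top pair, whereas Calb1 and Tmem52b are also high in principal barcodes and Ppp1r1a in thick ascending limb barcodes.

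The 6 sodium chloride transport genes that could be compared lay within 2-fold between injured and uninjured members. They are those of 13 on that list that reached 30 UMIs in a library; the other 7 were not compared. Their log2 ratios of injured over uninjured ran from −0.34 to 0.99 with a median of 0.05, against 0.30 for all 315 genes. Slc12a3 stood at 3492 CPM (3106 to 3911) in injured and 3410 CPM (2900 to 3983) in uninjured members, a log2 ratio of 0.03 (−0.25 to 0.32), which the rule's minimum on Slc12a3 UMIs conditions. Among the sodium pump genes, the log2 ratio was 0.50 for Atp1b1, the beta subunit, and −0.24 for Fxyd2, a regulatory subunit. The potassium channel Kcnj1 had a log2 ratio of −0.34 (−1.16 to 0.52).

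Most genes of the kinase pathway that switches the cotransporter on were below the count minimum, and those kept lay within 2-fold. Of the kinases named here, only Wnk1 was kept. Of 18 genes in the WNK and aldosterone list 3 were kept and 0 passed 2-fold, with log2 ratios from −0.30 to 0.93; they were −0.30 for Wnk1 and −0.06 for Ppp1r1a. Wnk1, whose short kidney form is known to be abundant in this segment, had 179 UMIs in 28 of 32 injured members and 120 UMIs in 17 of 18 uninjured members. Wnk4, the kinase that acts on the cotransporter through Stk39, had 28 UMIs in injured and 17 in uninjured members. Klhl3, the adaptor that targets WNK kinases for degradation, had 6 and 5 UMIs in injured and uninjured members. Hsd11b2, the enzyme that keeps glucocorticoids off the mineralocorticoid receptor and marks the late, aldosterone-sensitive portion, had 12 UMIs in 7 of 32 injured members and 0 in 18 uninjured members. Set against 3 uninjured UMIs, the limit that 0 allows, the injured level was 2.19-fold higher. This ratio leaves out the counting error of the 12 injured UMIs, so it is not a lower limit. The thinned share of Hsd11b2 was 13.4% in injured members and 0.600% in injured leukocyte barcodes. A thinned share is the expected share of barcodes with a UMI after drawing 1000 UMIs from each.

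The calcium and magnesium genes differed more. Of 17 genes on the list 7 were kept, 4 were at least 2-fold lower and 1 at least 2-fold higher in injured members, and the median log2 ratio was −1.06. Across all 315 genes, 8 (2.54%) were at least 2-fold lower and 41 (13%) at least 2-fold higher. Of the 5 genes past 2-fold, Pvalb reached the count minimum in uninjured members alone and Trpm7 in injured members alone. Without the mixed barcodes Kl, Calb1 and Trpm7 were within 2-fold, and the list median was −0.89. Barcodes chosen as thick ascending limb gave a median of −1.08 for the same 7 genes, which was the ratio of Calb1 there. Calb1 was low in those barcodes: with Slc12a3 and Tmem52b it summed to 171 CPM in injured and 319 CPM in uninjured ones. Umod, another of the 7, helped to choose those barcodes, so this median is not a like comparison.

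Pvalb had 11 UMIs in 5 of 32 injured members, with at most 5 in a barcode, and 39 UMIs in 8 of 18 uninjured members, with at most 21 in a barcode. The level was 129 CPM (64.3 to 231) in injured and 836 CPM (595 to 1143) in uninjured members, a log2 ratio of −2.65 (−3.81 to −1.70). Most members of either library had none, and 21 of the 39 uninjured UMIs came from 1 barcode. The log2 ratio stayed below 0 but left its counting interval in 3 alternatives. It was −0.50 among members with 1500 to 4000 UMIs, −1.10 among barcodes with at most 25% mitochondrial UMIs, where 2 uninjured members remained, and −0.66 when the rule was applied after thinning to 1000 UMIs, where 5 injured and 6 uninjured Pvalb UMIs remained. The thinned share was 9.10% of injured and 30.3% of uninjured members, and 0% of leukocyte barcodes in either library.

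Egf, the growth factor precursor that the distal tubule releases and that acts on magnesium uptake, had 0 to 24 UMIs per injured member with a median of 0.5, and 0 to 41 per uninjured member with a median of 3. It was at 996 CPM (796 to 1231) in injured and 2659 CPM (2212 to 3171) in uninjured members, a log2 ratio of −1.41 (−1.83 to −1.01). The ranges overlapped, and 16 of 32 injured members against 4 of 18 uninjured members had no Egf UMI. The log2 ratio of Egf left its counting interval in some alternatives. It was −0.70 when the rule was applied after thinning to 1000 UMIs. Among barcodes with at most 25% mitochondrial UMIs, where 2 uninjured members remained, it was −3.08. In thick ascending limb barcodes Egf was at 2512 CPM in injured and 7812 CPM in uninjured kidney, a log2 ratio of −1.64.

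Kl, which encodes Klotho, the co-receptor for the phosphate hormone FGF23, had 37 UMIs in 12 of 32 injured members and 46 UMIs in 12 of 18 uninjured members, a log2 ratio of −1.18 (−1.85 to −0.53). Calb1 was at 926 CPM (733 to 1154) in injured and 1930 CPM (1552 to 2372) in uninjured members, a log2 ratio of −1.06 (−1.51 to −0.61). Without the mixed barcodes these log2 ratios were −0.98 for Kl and −0.89 for Calb1. Calb1 was uneven, with 47 of the 79 injured UMIs in 2 of 32 barcodes and 69 of the 90 uninjured UMIs in 3 of 18. Its ratio turned to 0.014 among members with at least 5 Slc12a3 UMIs, and to 1.34 among barcodes with at most 25% mitochondrial UMIs, where 2 uninjured members remained. Umod, uromodulin, known mainly from the thick ascending limb, was at 1219 CPM in injured and 2359 CPM in uninjured members, a log2 ratio of −0.95. Its level in thick ascending limb barcodes was 10482 CPM in injured and 14078 CPM in uninjured kidney.

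Trpm7, the partner channel of Trpm6, was the gene of the list that was higher. It had 40 UMIs in 21 of 32 injured members and 10 UMIs in 6 of 18 uninjured members, a log2 ratio of 1.08 (0.10 to 2.29), and 0.99 without the mixed barcodes. The log2 ratio of Trpm7 in thick ascending limb barcodes was −0.21. Trpm6 had 13 UMIs in 9 of 32 injured members and 2 UMIs in 2 of 18 uninjured members, a ratio of 2.95 with a counting interval from 0.804 to 32.4. Trpv5, the apical calcium channel, had 0 UMIs in members of either library, which allows up to 35.2 CPM in injured and 64.3 CPM in uninjured members.

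Tmem52b was the marker that was higher in injured members. It had 0 to 11 UMIs per injured member with a median of 3.5, and 0 to 6 per uninjured member with a median of 1. The level was 1429 CPM (1187 to 1707) in injured and 579 CPM (382 to 842) in uninjured members, a log2 ratio of 1.28 (0.69 to 1.96), and the thinned share was 76.9% in injured and 35.0% in uninjured members. Its log2 ratio was −0.87 in thick ascending limb barcodes.

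**Figure D2:**
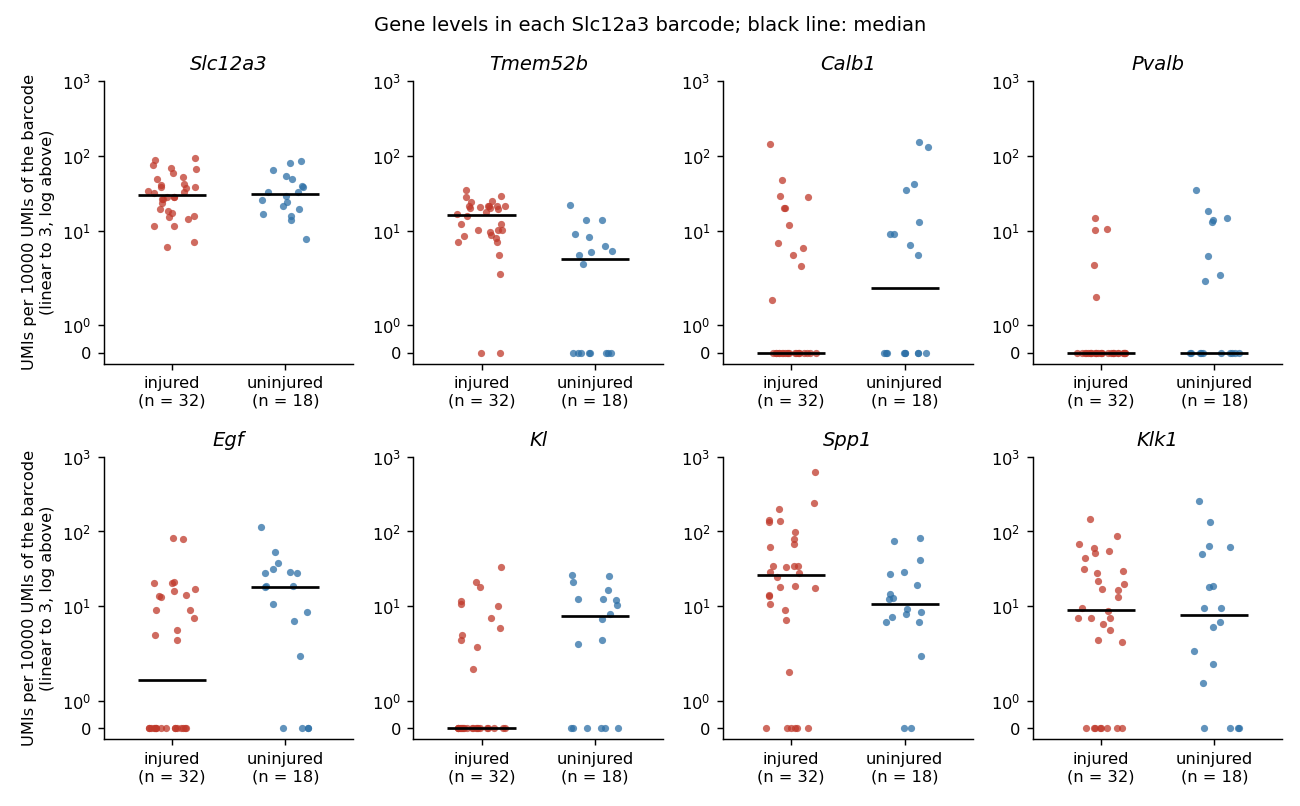
UMIs of 8 genes per 10000 UMIs of the barcode (linear to 3, logarithmic above) in each injured member (left) and each uninjured member (right), with the median as a black line. Slc12a3 covers the same range in both libraries, Tmem52b is missing from 2 of 32 injured and 8 of 18 uninjured members, and Egf and Kl are at 0 in a larger share of injured members.

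Members also differed among themselves in genes known from the early and the late portion of the segment. Position along the tubule was not measured. The cut-offs in this paragraph were chosen after the values were seen, so the subsets are descriptions without a test. S100g, a vitamin D-dependent calcium buffer of the late segment, reached at least 20 UMIs in 2 injured members (33 and 189) and 4 uninjured members (22 to 85). All 6 had 0 Pvalb UMIs and at least 8 UMIs of Klk1, the kallikrein protease of the connecting tubule. In all, 27 of 32 injured and 10 of 18 uninjured members had 0 Pvalb UMIs, so its absence was not particular to these 6. The upper quartile of Klk1 was 8 UMIs in injured and 7.5 in uninjured members. Pvalb reached at least 2 UMIs in 3 injured and 5 uninjured members. Those had at most 2 S100g UMIs, at most 2 Klk1 UMIs and at least 2 Egf UMIs. The median of S100g was 0 UMIs over all members of either library, and that of Klk1 was 2.5 in injured and 2 in uninjured members. Both kinds of barcode were present in both libraries, and the other 27 injured and 9 uninjured members met neither cut-off. Over all members, the log2 ratio of injured over uninjured was −0.76 for S100g and −0.46 for Klk1, and 189 of the 240 injured S100g UMIs were in 1 barcode. The late-segment list had 4 of 12 genes kept, 1 at least 2-fold lower and 0 higher (2.54% and 13% of all genes), with a median of −0.61 against 0.30 for all genes. The lower gene was Calb1, which was within 2-fold without the mixed barcodes. The connecting tubule genes Scnn1b and Scnn1g, subunits of the epithelial sodium channel, had 2 UMIs each in injured and 0 in uninjured members.

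Spp1, osteopontin, a secreted phosphoprotein known to increase in injured tubules, was the most abundant of the genes that were at least 2-fold higher. It had 0 to 133 UMIs per injured member with a median of 6.5, and 0 to 14 per uninjured member with a median of 3. The level was 6667 CPM (6130 to 7238) in injured and 1673 CPM (1322 to 2088) in uninjured members, a log2 ratio of 1.99 (1.65 to 2.36). It was detected in 26 of 32 injured and 16 of 18 uninjured members, so the difference lay in the amount and not in the share of barcodes with a UMI. In thick ascending limb barcodes its log2 ratio was 2.57, from 15926 CPM in injured and 2677 CPM in uninjured kidney. Among members, the log2 ratio of Spp1 was 1.08 when the rule was applied after thinning to 1000 UMIs. At no more than 25% mitochondrial UMIs, where 2 uninjured members remained, it was 4.20.

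The excess was concentrated in few cells. The 6 injured members with at least 20 Spp1 UMIs, a cut-off chosen after the values were seen, held 422 of the 569 injured UMIs; the other 26 injured members had at most 18. Without these 6 barcodes the log2 ratio of Spp1 was 0.42. Lcn2, the tubular injury marker NGAL, had 10 UMIs in 5 injured members, all among those 6, and 0 UMIs in the other 26 injured and the 18 uninjured members. The same 6 barcodes together had 1 Egf, 1 Kl, 1 Calb1 and 0 Pvalb UMIs in 19778 UMIs, whereas the other 26 injured members had 84 Egf, 36 Kl, 78 Calb1 and 11 Pvalb UMIs in 65569.

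Segment genes that the rule did not use went in both directions in those 6 barcodes. Their 3 to 16 Slc12a3 UMIs each follow from the rule. All 6 had Tmem52b, at 1820 CPM against 1312 CPM in the other 26, none had Slc12a1, and none was among the mixed barcodes. Clu, the chaperone clusterin, stood at 5208 CPM in the 6 and 1373 CPM in the other 26 injured members. Wfdc2, a secreted protease inhibitor, stood at 3236 CPM in the 6 and 1190 CPM in the other 26. S100a11, a calcium-binding protein, stood at 1264 CPM in the 6 and 305 CPM in the other 26. Wnk1 was at 657 CPM in the 6 and 2532 CPM in the other 26, Ppp1r1a at 455 CPM in the 6 and 1418 CPM in the other 26, and Defb1, a beta-defensin of the distal nephron, at 303 CPM in the 6 and 2318 CPM in the other 26. Umod, mainly of the thick ascending limb, was at 1972 CPM in the 6 and 991 CPM in the other 26. The other 26 included the 4 mixed injured barcodes. Over the 22 without them, Tmem52b was at 1593 CPM, Clu at 1736 CPM, Wfdc2 at 1430 CPM and S100a11 at 245 CPM. Wnk1 was at 2982 CPM, Ppp1r1a at 1716 CPM, Defb1 at 2982 CPM and Umod at 1205 CPM in those 22. The median mitochondrial share of the 6 was 10.8% (6.01% to 23.1%) and that of the other 26 was 30.9%, and their median depth was 3401 UMIs against 2244 UMIs; the part of these 2 differences in the gene levels was not tested.

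**Figure D3:**
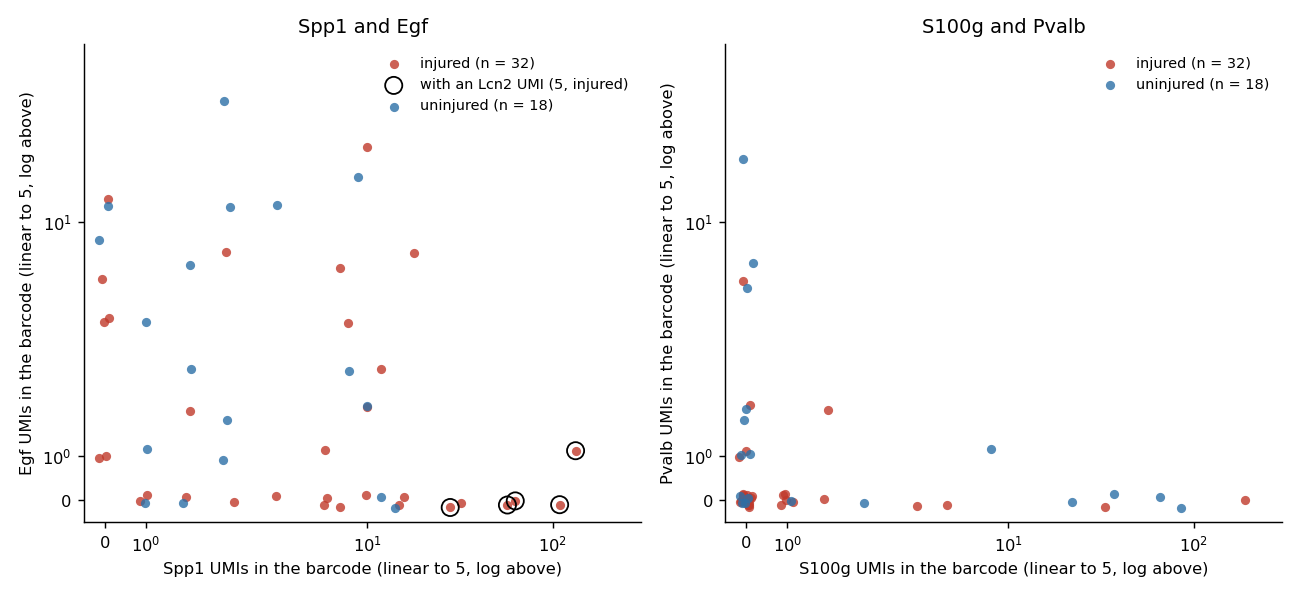
UMIs of 2 pairs of genes in each member (both axes linear to 5 and logarithmic above, points moved slightly apart), injured in red and uninjured in blue. On the left the 5 injured members with an Lcn2 UMI (rings) all have at least 28 Spp1 UMIs and at most 1 Egf UMI. On the right members with at least 20 S100g UMIs have no Pvalb UMI, which also holds for most members of either library.

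Across all 315 genes the summed levels leaned towards injured members. The median log2 ratio was 0.30, 219 genes were above 0, and 41 genes (13%) were at least 2-fold higher against 8 (2.54%) lower. Centred on that median, 23 genes were higher and 17 lower by 2-fold. With mitochondrially encoded genes left out of the total, 26 were higher and 13 lower. Of the 315 genes, 186 reached the minimum of 30 UMIs in injured members alone, and those held 39 of the 41 higher genes; of the 127 that reached it in both libraries, 2 were higher and 6 lower. The minimum favours the larger injured sum of 85347 UMIs over the uninjured sum of 46631 UMIs; with a minimum on the mean CPM of both libraries, chosen after the data were seen, 12 of 198 genes were higher and 6 lower. Without the 5 mixed barcodes 44 (14%) of the same 315 genes were higher and 8 (2.54%) lower, of which 36 and 6 were the genes called with them. Of the 41 higher genes 34 were also above 0 in thick ascending limb barcodes, and of the 8 lower genes 8 were also below 0 there.

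**Figure D4:**
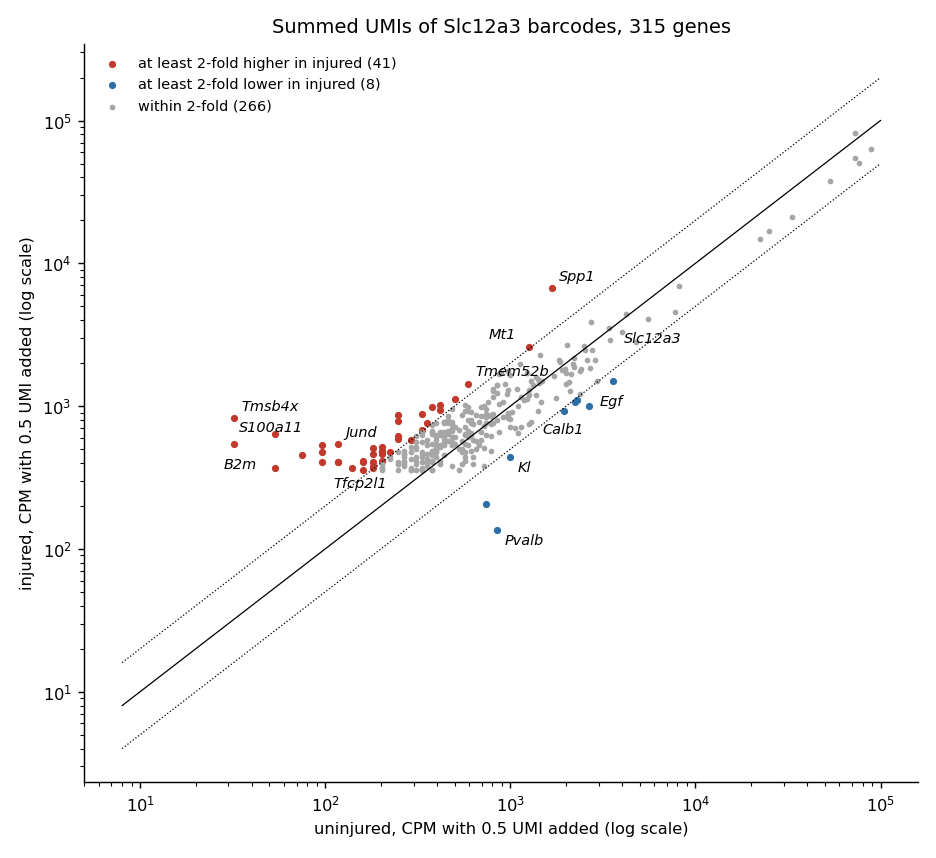
Level of each of 315 genes summed over injured members (vertical) and uninjured members (horizontal), as CPM with 0.5 UMI added on log axes, with the line of equality and dotted lines at 2-fold. The 41 genes above the upper line include Tmsb4x, B2m and Spp1, the 8 below the lower line include Pvalb, Egf and Kl, and Slc12a3 lies on the line of equality.

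Some injury-associated genes had high ratios, with a list median that depended on the setting. Of 33 genes on the tubular injury list 6 were kept, 4 were at least 2-fold higher and 0 lower (13% and 2.54% of all genes), and the median log2 ratio was 2.23. Of the 4, 3 reached the count minimum in injured members alone (Tmsb4x, Tmsb10 and S100a11), so the count gives no support of its own. The median was 0.71 with a minimum of 10 UMIs, 0.94 with a minimum on the mean CPM, 0.46 without the 6 injured members with at least 20 Spp1 UMIs and 0.25 after thinning. The same 6 genes had a median of 2.61 in thick ascending limb barcodes. Tmsb4x, an actin-binding thymosin, had 70 UMIs in 14 of 32 injured members and 1 UMI in the 18 uninjured members, a log2 ratio of 4.68 (2.73 to 10.58). Tmsb10, its relative, had 54 UMIs in injured and 2 in uninjured members, a log2 ratio of 3.57 (1.96 to 6.96). Both are abundant in leukocytes: Tmsb4x was at 17718 CPM in injured leukocyte barcodes, and 39 of its 70 and 42 of the 54 Tmsb10 UMIs were in the 4 mixed injured barcodes. Without them the log2 ratios were 3.71 for Tmsb4x and 1.64 for Tmsb10, and the thinned share of Tmsb4x was 21.1% in injured and 2.78% in uninjured proximal tubule barcodes. S100a11 had 45 UMIs in 17 of 32 injured members and 4 UMIs in 4 of 18 uninjured members, a log2 ratio of 2.47 (1.16 to 4.56). Its ratio was 2.74 without the mixed barcodes, 1.02 at no more than 25% mitochondrial UMIs and 0.07 after thinning, where 3 injured and 2 uninjured UMIs remained. Clu had 193 UMIs in injured and 67 in uninjured members, a log2 ratio of 0.65, whereas in thick ascending limb barcodes its log2 ratio was 4.05, from 1373 CPM in injured and 80.8 CPM in uninjured kidney. The level of Clu in uninjured members, 1437 CPM, was near that of the injured thick ascending limb. That level was uneven, with 21 of the 67 uninjured UMIs in 1 barcode and 19 in another. The median was 1 Clu UMI per uninjured member and 4.5 per injured member. Cryab, a small heat shock protein, had 3 UMIs in injured and 16 in uninjured members, 15 of them in 1 barcode.

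Class I genes of the MHC had few UMIs in uninjured members. Of 31 genes on the interferon and MHC list 3 were kept, and all 3 were at least 2-fold higher (13% of all genes were), but each reached the count minimum in injured members alone, so their direction was nearly fixed by it. B2m, the light chain of MHC class I, had 46 UMIs in 14 of 32 injured members and 1 UMI in the 18 uninjured members, a log2 ratio of 4.08 (2.10 to 9.99). H2-D1, a class I heavy chain, had 38 UMIs in 17 of 32 injured and 3 UMIs in 3 of 18 uninjured members, a log2 ratio of 2.59 (1.13 to 5.13). H2-K1, the other heavy chain, had 40 UMIs in 18 of 32 injured and 4 UMIs in 3 of 18 uninjured members, a log2 ratio of 2.30 (0.98 to 4.39). The heavy chain genes are near-identical in places, so the split of reads between them is uncertain. Without the mixed barcodes the log2 ratios were 3.29 for B2m, 2.24 for H2-D1 and 1.98 for H2-K1, and 23 of 46 B2m UMIs were in those barcodes. After thinning the ratio of H2-D1 was 0.07, from 3 injured and 2 uninjured UMIs, whereas B2m had 6 injured and 0 uninjured UMIs and H2-K1 5 and 0. The log2 ratios in thick ascending limb barcodes were 1.02 for B2m, 1.47 for H2-D1 and 1.32 for H2-K1.

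RNA of leukocytes was more widespread in the injured library, and its part in these class I values was not tested. Igkc, an antibody light chain, had a UMI in 18 of 32 injured and 2 of 18 uninjured members, with at most 4 in a barcode, and its thinned share was 28.8% in injured and 3.71% in uninjured members against 38.5% in injured and 1.15% in uninjured proximal tubule barcodes. Of the 7 B and plasma cell markers, the summed UMIs were 29 in injured and 2 in uninjured members. The 8 T and NK cell markers summed to 15 UMIs in injured and 0 in uninjured members, of which 1 lay outside the mixed barcodes, and the 10 macrophage and dendritic markers to 2 and 0. Fibroblast, podocyte and neutrophil markers had 0 UMIs in members of either library.

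The promoters of these 3 genes are shown because the genes encode the chains of 1 complex; each is the 250 bases before the gene's start from RefSeq (GRCm38.p6), on the gene's own strand. Capitals mark the longest run that the heavy chain promoters share and every match on either strand to CCAAT, the core of the Y box of class I promoters, which do not overlap.
B2m, chr2:122147437-122147686, plus strand: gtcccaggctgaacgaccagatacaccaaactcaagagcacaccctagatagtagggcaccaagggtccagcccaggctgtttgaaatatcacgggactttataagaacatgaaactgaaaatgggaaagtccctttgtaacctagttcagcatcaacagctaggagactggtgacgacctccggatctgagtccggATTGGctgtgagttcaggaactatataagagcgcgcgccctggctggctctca
H2-K1, chr17:34000348-34000597, minus strand: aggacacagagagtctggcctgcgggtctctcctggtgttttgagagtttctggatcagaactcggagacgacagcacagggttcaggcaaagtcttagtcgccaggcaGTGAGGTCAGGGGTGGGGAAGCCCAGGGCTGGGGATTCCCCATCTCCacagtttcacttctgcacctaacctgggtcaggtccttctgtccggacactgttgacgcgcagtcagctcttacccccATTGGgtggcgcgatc
H2-D1, chr17:35262844-35263093, plus strand: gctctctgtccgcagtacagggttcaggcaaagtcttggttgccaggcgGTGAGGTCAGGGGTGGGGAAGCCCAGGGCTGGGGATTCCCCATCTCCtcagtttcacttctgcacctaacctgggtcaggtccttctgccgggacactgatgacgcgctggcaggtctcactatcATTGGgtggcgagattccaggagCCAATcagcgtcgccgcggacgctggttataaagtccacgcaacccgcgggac
The shared run is 47 bases long, begins 141 bases before the start of H2-K1 and 201 bases before that of H2-D1, and was found in 3 of 32817 promoter windows of this length. All 3 genes held CCAAT, which 33.8% of windows held. A match is a run of letters and not a measured site.

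Of the other named genes, 4 encode transcription regulators; they were grouped after their values were seen, and each reached the count minimum in injured members alone. The list of distal nephron regulators had 1 of 25 genes kept. Jund, a subunit of AP-1, had 46 UMIs in 22 of 32 injured members and 5 UMIs in 4 of 18 uninjured members, a log2 ratio of 2.21, or 4.62-fold (2.01 to 16.2). The log2 ratio of Jund was 0.28 among barcodes with at most 25% mitochondrial UMIs, where 2 uninjured members remained. Tfcp2l1, a transcription factor of the distal nephron and collecting duct, had 34 UMIs in 17 of 32 injured members and 4 UMIs in 4 of 18 uninjured members, a log2 ratio of 2.07 (0.73 to 4.17). Its log2 ratio was 1.01 in thick ascending limb and −0.28 in principal barcodes. Id2, an inhibitor of helix-loop-helix factors, had 34 UMIs in 15 of 32 injured members and 5 UMIs in 4 of 18 uninjured members, a log2 ratio of 1.78 (0.53 to 3.61), and 0.24 after thinning, where 5 injured and 3 uninjured UMIs remained. Jun had a log2 ratio of 2.78 (1.11 to 6.19) from 31 UMIs in injured and 2 in uninjured members, but 22 of the 31 were in 1 barcode. That barcode, one of the 6 with high Spp1, also held 22 of 23 Fos, 15 of 25 Junb, 15 of 21 Klf6, 16 of 24 Btg2 and 11 of 17 Klf2 UMIs of injured members. The immediate early list, whose genes are known to respond within minutes to many stimuli, summed to 240 UMIs in injured and 27 in uninjured members, and 130 of the 240 were in that same barcode. Its 2 genes kept of 19, Jun and Jund, were both at least 2-fold higher (13% of all genes were), and both were kept through the injured library alone.

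The metallothioneins, which bind zinc and copper and buffer oxidants, had higher summed levels in injured members. Mt1 was at 2601 CPM in injured and 1244 CPM in uninjured members, a log2 ratio of 1.06 (0.64 to 1.51), and Mt2 at 855 CPM and 236 CPM in injured and uninjured members, a log2 ratio of 1.80 (0.94 to 2.92). After thinning the ratio of Mt2 was 0.13, from 9 injured and 6 uninjured UMIs. In thick ascending limb barcodes the log2 ratios were 0.61 for Mt1 and 2.01 for Mt2. The antioxidant list as a whole had 9 of 21 genes kept, 2 higher and 1 lower (13% and 2.54% of all genes), and a median of 0.46 against 0.30 for all genes. The lower 1 was Gpx3, secreted by proximal tubule, of which 75 of 91 injured and 59 of 104 uninjured UMIs were in mixed barcodes; its log2 ratio was −1.06, and −2.15 without them. Kap and Miox, proximal tubule genes, were lower by log2 ratios of −1.25 and −1.85, with 122 of 128 Kap and 16 of 17 Miox UMIs of injured members in mixed barcodes. The 15 proximal markers summed to 10 UMIs in injured and 22 UMIs in uninjured members once the mixed barcodes were left out.

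The energy genes differed by less than 2-fold. All 11 mitochondrially encoded genes kept were below 0, with a median log2 ratio of −0.58, and mt-Nd4l, a subunit of complex I, was lowest at −0.98. The nuclear genes of the respiratory chain had 36 of 40 kept, 0 past 2-fold and a median of −0.15, with Ndufa3, a complex I subunit, at −0.76. Thick ascending limb barcodes had medians of −0.91 for the mitochondrially encoded and −0.54 for the nuclear genes. Oxct1, the enzyme that lets cells use ketone bodies, had a log2 ratio of −0.92, and Wfdc15b, a WAP-domain protein, −1.06. The glycolysis list had 4 of 17 genes kept, 0 past 2-fold and a median of 0.58. The 67 ribosomal protein genes kept had a median of 0.52 with 7 (10.4%) at least 2-fold higher and 0 lower, near the 13% and 2.54% of all genes. The heat shock list had 5 of 15 genes kept, 0 past 2-fold and a median of 0.30, the same as all genes. The hedgehog list, the pathway studied in the bulk samples, had 2 UMIs in injured and 3 in uninjured members, too few to compare at this depth. The TNF and NF-kappa B list summed to 42 UMIs in injured and 8 in uninjured members, with no gene kept.

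**Figure D5:**
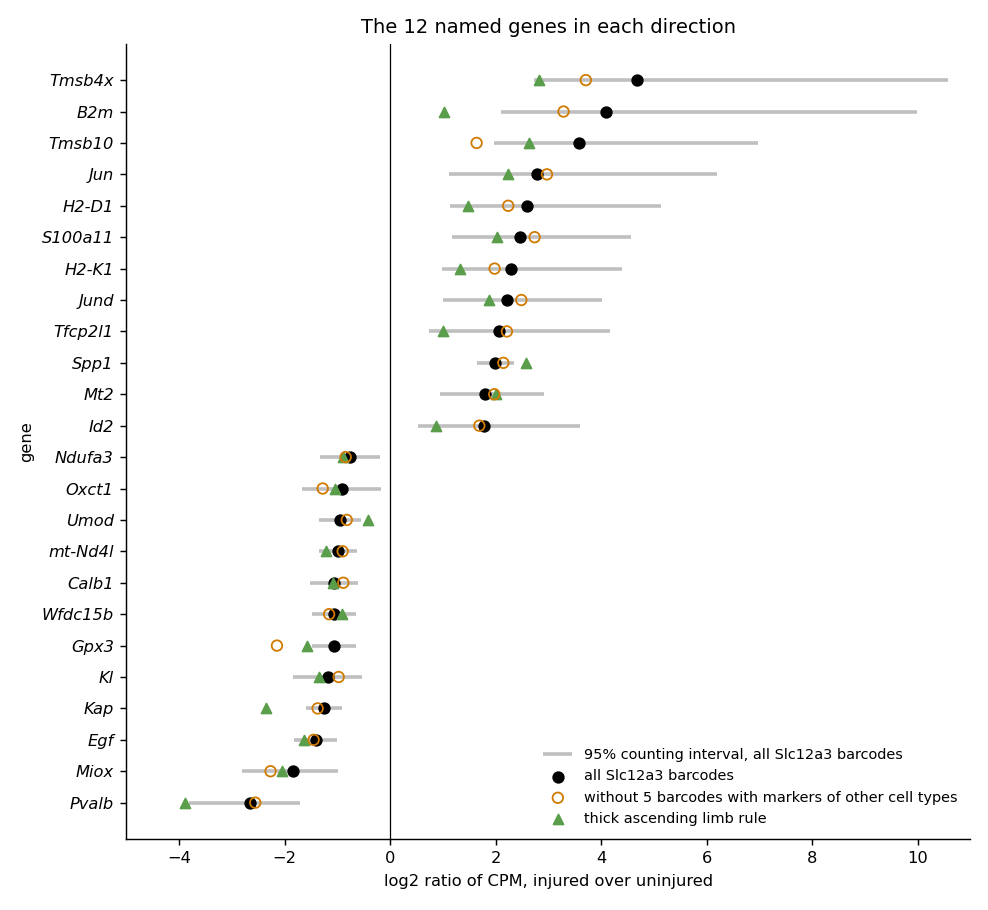
Log2 ratio of CPM, injured over uninjured, for the 12 genes named in each direction: all Slc12a3 barcodes (black, with 95% counting intervals in grey), without the 5 mixed barcodes (orange rings) and in thick ascending limb barcodes (green triangles). All 24 genes have the same sign in both groups of barcodes, and Tmsb10 and Gpx3 move most when the mixed barcodes are left out.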

How the data were processed

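Gene by barcode tables of UMI counts were deposited by the authors, who used 10x 3′ v2 chemistry per the labels' protocols, and Cell Ranger and STAR with GRCm38 or mm10 per the submitters' processing notes. The lowest barcode total was 1004 UMIs, the highest gene number 2496 and the highest mitochondrial share under 50%, so barcodes outside these limits are not analysed here. Genes listed numbered 15340 for the injured and 13217 for the uninjured library, 13051 of them common to both. No reads, clustering or doublet caller were used: mixed barcodes (Slc12a1 at least 2, Slc34a1 plus Lrp2 at least 2, or Ptprc at least 1 UMI) were left out as an alternative. UMIs were summed over members per library and divided by the library's member total (CPM), with 0.5 UMI added before log2 ratios. Genes kept had at least 30 UMIs in 1 library. Intervals are exact (Poisson, Clopper-Pearson, conditional binomial). Members were set aside first. Comparison barcodes, in order of precedence, had Aqp2 at least 3 (principal), Slc12a1 at least 2 or Umod at least 5 (thick ascending limb), Atp6v1g3 at least 2 (intercalated), Ptprc at least 1 with Slc12a3 at 0 (leukocyte) or Slc34a1 plus Lrp2 at least 2 (proximal tubule). Named genes were the 12 largest ratios in each direction with UMIs in at least 10% of members of the higher library, the 15 largest members-over-others ratios, kept genes of the distal lists and the largest of other lists; a few of these are not reported here. Members and the 31 gene lists were chosen with earlier results of these data known. The scripts ran on Python 3.11.15 with scipy 1.17.1 and were tested on simulated data.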

Additional observations from a re-analysis of the deposited data

How the results depend on the processing

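No paired analysis was possible because each group is 1 library, so no replicate number is shared and no library could be left out. Of 158 alternative values of the shares, counts and list medians, 131 stayed within the main value's counting interval (for a list, the median interval of its genes) or 1.5 times its count. The setting with Aqp2 at 0 UMIs chose the same members, so its values, counted in the 131, could not differ. Requiring 5 Slc12a3 UMIs gave 5 genes at least 2-fold lower and a Calb1 log2 ratio of 0.014. Keeping barcodes with at most 25% mitochondrial UMIs gave member shares of 0.585% (injured) and 0.287% (uninjured), a mitochondrially encoded median of −0.35 and a Calb1 ratio of 1.34. Applying the rule after thinning to 1000 UMIs gave an injured share of 0.653%, 1 higher and 2 lower genes, a tubular injury median of 0.25 and a Miox ratio of 1.17. Leaving mitochondrially encoded genes out of the total gave 26 higher and 13 lower genes. Centring on the median gave 23 and 17, with medians of −0.26 (salt transport) and −0.88 (mitochondrially encoded). A minimum of 10 UMIs gave 270 and 30, with a tubular injury median of 0.71. Members of 1500 to 4000 UMIs gave 26 higher genes, a salt transport median of 0.61 and a mitochondrially encoded median of −0.41. The next settings were chosen after seeing the data. Without mixed barcodes and mitochondrial genes, 18 genes were higher. A mean of at least 500 CPM gave 12 higher genes and a tubular injury median of 0.94. Leaving out the 6 injured members with at least 20 Spp1 UMIs gave 14 higher and 4 lower genes, a mitochondrially encoded median of −0.38 and a tubular injury median of 0.46. Of 26 named genes, 14 left their counting interval at no more than 25% mitochondrial UMIs and 13 after thinning. Apart from fewer barcodes or genes in these settings, the cause was not tested. With 18 uninjured members, a gene below about 64.3 CPM there is under the limit that a count of 0 allows.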
